A study of Sus scrofa with 70 samples.

Results

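Protamines and transition proteins pack the DNA of the maturing sperm head. In spermatids, the haploid germ cells of the testis, most histones are taken off the DNA, the transition proteins TNP1 and TNP2 occupy it for a time, and the small arginine-rich protamines then replace them and condense the chromatin. Their mRNAs are made in round spermatids, held in storage and translated later, and mature sperm make hardly any RNA of their own. In boars, sperm chromatin is known to be packed mainly by protamine 1, while PRM2 encodes a precursor that is trimmed after it is made.

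Levels of these genes were described across 5 reproductive glands of the boar. Members were taken by name, and TPM (a share of a library corrected for transcript length and scaled to a fixed total) was summed over the transcripts of each name. Of 5 named members, 4 were found among the 35680 genes of the table: PRM1, PRM2, TNP1 and TNP2, with 5 transcripts in all. PRM3 was not matched by name, and its level was not analysed here. Boars aged 12 months, with no treatment named in the labels, gave the testis, the epididymis and the 3 accessory glands, which are the vesicular, prostate and bulbourethral glands. They came from 2 breeds, the Banna mini-pig inbred line (BMI) and the Diannan small-ear pig (DSE). Each breed and gland had 3 short-read RNA-seq libraries and 1 long-read PacBio Iso-seq library. The labels do not say which libraries came from the same boar, so p-values measure the spread between these samples.

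The RNA-seq table holds TPM without read counts, so the number of reads behind each value is not known from it and no counting interval is given. The deposited Iso-seq table holds 231413 to 458697 full-length reads per library, summed over the isoforms kept in it. These sums are not the depth of the libraries, which sequenced more reads, and every long-read share below is a share of them. Testis and epididymis held their markers. In all 6 testis libraries the 13 late spermatid and sperm markers summed to 3379 to 12765 TPM and the 6 Leydig cell markers to 18624 to 63648 TPM. One testis library, DSE replicate 2, stood apart from the other 5, and ranges, folds and breed differences that rest on it are given with and without it. All 8 tested markers of epididymal epithelium were called higher in epididymis than in the accessory glands (EPPIN, CRISP1 and ADAM7 among them). The epididymis libraries differed widely from each other in genes of that epithelium.

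The sequences below show the windows just ahead of the transcripts, since core promoters lie in such stretches. PRM1, PRM2 and TNP2 lie side by side on chromosome 3, while TNP1 lies alone on chromosome 15 (Sscrofa11.1, the build of the deposited annotation). PRM1 (ENSSSCG00000021337) is at chr3:31861087-31861510 on the plus strand. PRM2 (ENSSSCG00000024307) follows at chr3:31864350-31864961 and TNP2 (ENSSSCG00000027300) at chr3:31870068-31871702, both on the plus strand. TNP1 (ENSSSCG00000016179) is at chr15:119037496-119038105 on the minus strand. In each gene 2 exons are separated by an intron, which measured 105 bases in PRM1, 133 in PRM2, 196 in TNP1 and 858 in TNP2. RefSeq places PRM3 between PRM2 and TNP2, at chr3:31865159-31866717, and the span from the start of PRM1 to the end of TNP2 in RefSeq is 10444 bases. The next named gene beyond TNP2, SOCS1 at chr3:31881225-31884967, was at 0.675 to 1.47 TPM in testis and 0.261 to 3.25 TPM in the other glands, so its groups overlapped.

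Each window ends at the base before the most-read Iso-seq start, reads 5′ to 3′ on the gene's strand and comes from the RefSeq genome sequence. Capitals mark the longest run of A and T near base 30 ahead of the start, and the letters TGACGTCA and TCACAAT. The TNP2 window is kept to 30 bases because a predicted RefSeq model of TNP2 begins further upstream.
PRM1, chr3:31860932-31861031: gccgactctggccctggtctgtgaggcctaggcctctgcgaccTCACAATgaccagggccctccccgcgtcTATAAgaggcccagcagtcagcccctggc
PRM2, chr3:31864221-31864320: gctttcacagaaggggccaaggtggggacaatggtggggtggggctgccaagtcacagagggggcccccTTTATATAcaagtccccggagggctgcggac
TNP1, chr15:119038091-119038190: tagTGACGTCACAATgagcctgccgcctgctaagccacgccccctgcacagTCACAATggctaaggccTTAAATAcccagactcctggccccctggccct
TNP2, chr3:31870006-31870035: TATATAAccaggggctgccagggcctctgt

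All 4 windows held a run of A and T of at least 5 letters that began 29 to 32 bases ahead of the Iso-seq start. The run was 5 letters long in PRM1, 8 in PRM2 and 7 in TNP1 and TNP2. Over the most-read full-splice-match isoform of 6226 genes, 14.5% had a run of at least 5 letters touching bases 40 to 20 ahead of the start, and 5.53% had one of at least 7. The 4 letters TATA were in that stretch in PRM1, PRM2 and TNP2 and in 3.73% of all genes. TNP1 held TGACGTCA, the full cyclic AMP response element, 97 to 90 bases ahead of its start. In windows from 250 bases before to 50 after the start, read on both strands, this motif was in 1 of 4 members and in 3.29% of genes. The shorter TGACG, which that element contains, was in TNP1 alone among the members and in 31.9% of genes. TATAAA was in PRM2 alone, on the opposite strand and overlapping its run of A and T, and in 6.86% of genes. TCACAAT was found once in PRM1, once in TNP2 at 47 to 41 bases ahead of the start, and at 2 places in TNP1, 1 of which overlaps the response element. It was in 0.948% of genes within 100 bases, on either strand. The run of A and T, TATA and TCACAAT were chosen after these sequences were seen, and a match of letters is a description.

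The codons of the RefSeq coding exons show how the members differ as proteins. PRM1 had 50 codons, of which 25 were for arginine and 10 for cysteine. PRM2 had 93 codons, with 37 for arginine and 5 for cysteine. TNP1 shared its basic residues between 11 arginine and 10 lysine codons of 55. TNP2 had 137 codons, of which 31 were for serine, 16 for arginine and 12 for lysine. PRM3 differed from the others, with 2 arginine codons of 92.

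PRM1 was at the highest level of the 4 genes in every testis library, followed in every one by TNP1, PRM2 and TNP2 in that order, on the TPM scale. PRM1, which encodes the main protamine of boar sperm, was at 46809, 63620 and 54327 TPM in BMI and at 71826, 18217 and 54358 TPM in DSE. It had the highest TPM of all genes in 5 of 6 testis libraries, and the fifth highest in DSE replicate 2. The 3 BMI libraries lay close together and within the range of the DSE libraries. TNP1, the gene of the smaller transition protein, was at 17033, 17983 and 13378 TPM in BMI. It was at 26595, 4166 and 14634 TPM in DSE, so that DSE held both the highest and the lowest library.

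PRM2, the gene of the trimmed protamine, was at 5993, 6227 and 5422 TPM in BMI and at 9171, 1415 and 4549 TPM in DSE. TNP2, which acts with TNP1 while histones leave the DNA, was at 3446, 4167 and 3413 TPM in BMI. Its level was 6593, 882 and 3140 TPM in DSE. In all 4 genes DSE replicate 1 was the highest testis library and DSE replicate 2 the lowest. Together the 4 genes took 7.62% ± 2.95 (SD, n = 6) of the TPM of a testis library, from 2.47% in DSE replicate 2 to 11.4% in DSE replicate 1. The mean of PRM1 (51526 ± 18471 TPM, SD, n = 6) lay above that of TNP1 (15632 ± 7283) by more than either SD, and TNP1 lay above PRM2 (5463 ± 2523) by more than either SD. PRM2 and TNP2 (3607 ± 1841) differed by less than the SD of PRM2, although PRM2 was above TNP2 in 6 of 6 libraries.

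**Figure D1:**
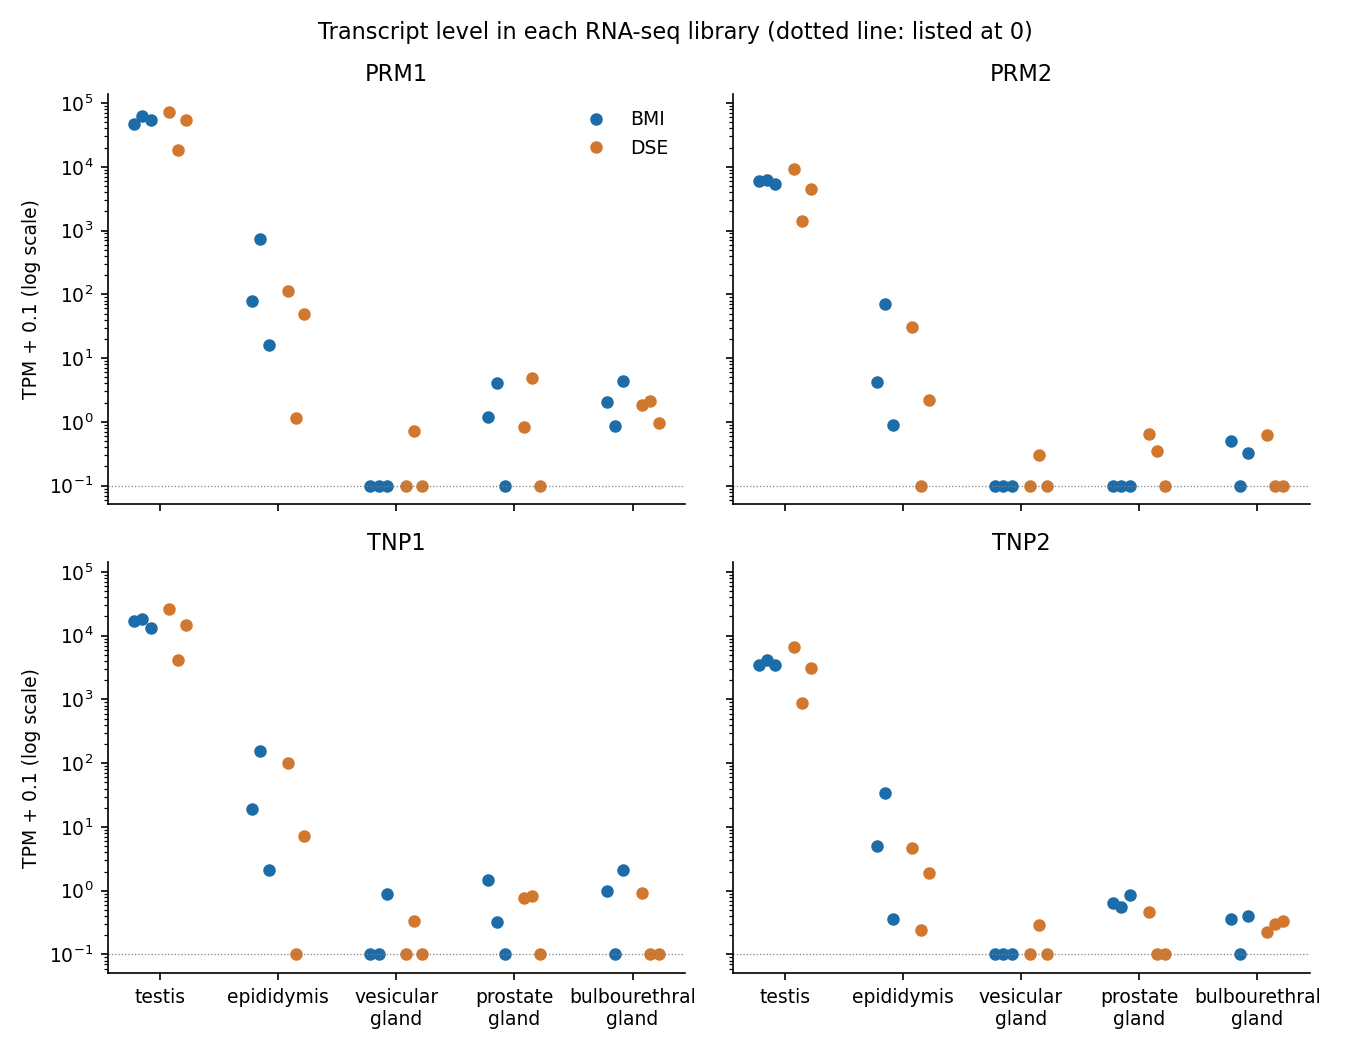
TPM + 0.1 on a log scale for PRM1, PRM2, TNP1 and TNP2 in each of 30 RNA-seq libraries, by gland and breed (blue BMI, orange DSE; 1 point per library; points on the dotted line are listed at 0). All 6 testis libraries lie above every other library in each panel, most epididymis libraries lie above the accessory glands with DSE replicate 2 among them, and the accessory glands stay at or under 4.78 TPM.

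Transcript levels of the members separated testis from all other glands. The lowest testis library exceeded the highest library of any other gland 24.5-fold for PRM1, 20.1-fold for PRM2, 26.7-fold for TNP1 and 26.0-fold for TNP2. These folds set DSE testis replicate 2 against BMI epididymis replicate 2, and without the former they were 63.0, 64.5, 85.7 and 92.7. They rest on the latter as well, which held 744, 70.5, 156 and 33.9 TPM. The next highest epididymis values were 112, 30.7, 102 and 4.97 TPM. All 4 members thus had testis libraries above all 24 others, as did 23.8% of the 19911 genes tested. On the log2(TPM + 1) scale the testis mean exceeded the mean of the other 4 glands by 13.47 ± 0.62 (SE) for PRM1, 11.45 ± 0.54 for PRM2, 12.47 ± 0.64 for TNP1 and 10.92 ± 0.41 for TNP2. All 4 passed limma's test (adjusted p at most 4.07e-15), where a call needed an adjusted p under 0.05 and a log2 difference of at least 1. By that rule 34.5% of genes tested were higher in testis. Against epididymis alone the differences were 9.96 ± 0.79, 9.57 ± 0.68, 9.92 ± 0.81 and 9.57 ± 0.52 in the same order of genes, and all 4 passed (29.3% of genes were higher in testis in this comparison). Because other glands were listed near 0, these log2 differences depend on the pseudocount of 1 TPM. Whole tissue was sequenced, so fewer spermatids and less RNA per spermatid cannot be told apart in any of these levels. The median over all genes was 0.31 for testis against the other glands, and 0.11 when each library was first divided by a median-of-ratios size factor.

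Genes that work around the protamines were mostly higher in testis as well. Of 4 germ cell histones found by name, 3 could be tested and all 3 were higher. The untested one was H1-8, the linker histone of oocytes, at 0 to 0.298 TPM in testis. The 3 tested genes had a median log2 difference of 3.25 against 0.31 over all genes. H1-7, a spermatid linker histone, was higher by 8.50 ± 0.25, H2BC1, the testis H2B, by 3.25 ± 0.14 and H1-6, the linker histone of spermatocytes, by 2.49 ± 0.17. Of 21 genes that take part in removing histones, 14 were higher and none was lower (median 1.63). With size factors 12 were higher and 2 lower. The largest differences were those of PHF7, a histone ubiquitin ligase (9.30 ± 0.21), of TSSK6, a spermatid kinase (8.92 ± 0.20), and of CCER1 (8.16 ± 0.18).

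All 16 tested genes for transcribing, storing and translating protamine mRNA were higher in testis (median 4.53). YBX2, the germ cell protein that binds and stores these mRNAs, was higher by 9.40 ± 0.34, KIF17, a motor protein of spermatids, by 7.79 ± 0.20 and GTF2A1L, a germ cell form of a general transcription factor, by 6.49 ± 0.16. All 5 tested kinases and phosphatases that act on protamines or in their cells were higher (median 2.63). Among them CAMK4, a kinase of spermatids, was higher by 6.67 ± 0.17, SRPK2 by 3.32 ± 0.26, PPP1CC, a phosphatase with a germ cell form, by 2.63 ± 0.21, SRPK1, which phosphorylates protamine 1, by 2.28 ± 0.18 and CSNK2A2 by 2.13 ± 0.16. Of the markers, 13 of 13 late spermatid, 8 of 9 spermatocyte, 6 of 6 Leydig cell and 6 of 8 Sertoli cell genes were higher, and 1 Sertoli cell gene, SOX9, was lower (12.7% of genes were lower in testis). ODF1, a protein of the outer dense fibres of the sperm tail, was higher by 10.23 ± 0.35, OAZ3 by 9.55 ± 0.38, SYCP3, a protein of paired meiotic chromosomes, by 6.84 ± 0.14 and INSL3 by 13.70 ± 0.17. OAZ3 was the most abundant late spermatid marker in testis, at 630 to 2451 TPM. Of 8 epididymal epithelium markers 1 was higher and 2 were lower, and of 5 accessory gland markers 3 were lower. The lists were chosen with results of these data known and are not independent support.

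The genes that work around the protamines were also mostly higher in testis when set against epididymis alone. Of the genes of histone removal 11 of 21 were higher in testis and 1, TOP2B, a DNA topoisomerase, was lower, at a log2 difference of -1.24. In this comparison 21.6% of genes were lower in testis. All 16 genes of mRNA storage and translation, all 5 kinases and phosphatases and all 3 histones were higher in testis, with medians of 4.09, 2.42 and 3.17 against -0.02 over all genes. TSSK6 was higher by 8.92 ± 0.25, PHF7 by 8.25 ± 0.27 and YBX2 by 7.83 ± 0.43. TSSK6 was at 128 to 784 TPM in testis and listed at 0 in all 6 epididymis libraries. H1-7 was at 120 to 652 TPM in testis and at 0 to 4.46 TPM in epididymis, with its highest value in BMI replicate 2. All 8 markers of epididymal epithelium were lower in testis, with CRISP1 at a log2 difference of -9.60.

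The library DSE replicate 2 was low in every member and in most other germ cell genes, and high in genes of the somatic cells of the testis. Relative to the median of the other 5 testis libraries it held 0.335 of PRM1, 0.236 of PRM2, 0.245 of TNP1 and 0.256 of TNP2. For the summed late spermatid markers this ratio was 0.279, with 13 of 13 genes at their lowest in that library, and for the spermatocyte markers 0.321, with 8 of 9. The germ cell histones were at 0.250, the genes of histone removal at 0.325 and those of mRNA storage and translation at 0.273. Of these, 3 of 4, 13 of 21 and 15 of 16 genes were lowest in that library, and 3 of the genes of histone removal were highest in it. Leydig cell markers were at 2.91 and Sertoli cell markers at 2.66, with 6 of 6 and 8 of 8 genes at their highest there. Over all genes tested, 35.3% were lowest and 35.8% highest in that library. INSL3, the hormone of Leydig cells, was at 42359 TPM in it, the highest of the 6. The part of these markers in the member levels was not tested.

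**Figure D2:**
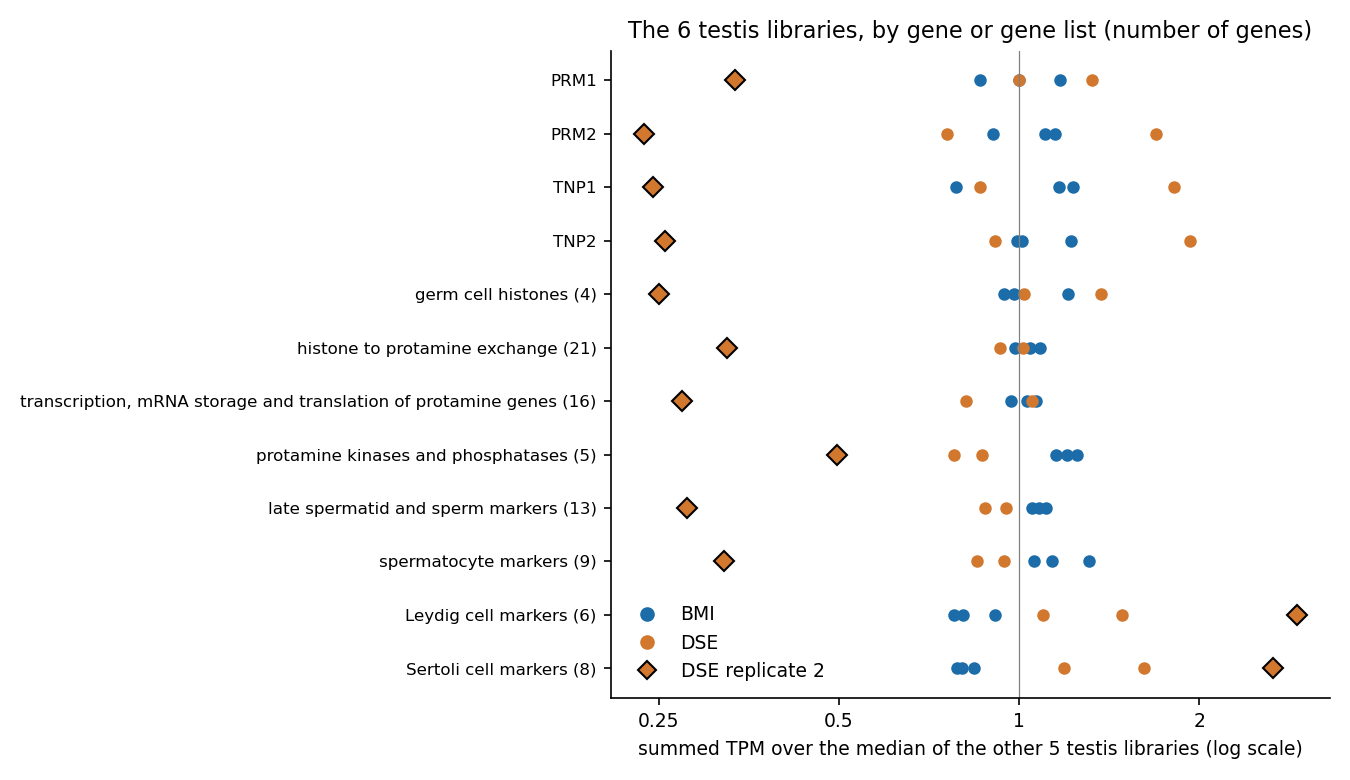
Summed TPM of each member or gene list in each testis library, divided by the median of the other 5 testis libraries (log axis; blue BMI, orange DSE, outlined diamond DSE replicate 2; the number of genes in each list is in brackets). The diamond lies at 0.236 to 0.335 for the 4 members, below 0.5 for the 6 lists that follow them, and at 2.91 and 2.66 for the Leydig and Sertoli cell lists.

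Levels in testis did not separate the breeds. On the log2(TPM + 1) scale BMI minus DSE was 0.40 ± 0.54 (SE, 3 libraries against 3) for PRM1, 0.59 ± 0.68 for PRM2, 0.45 ± 0.69 for TNP1 and 0.47 ± 0.74 for TNP2. None of the 4 passed limma's test (adjusted p = 0.734, 0.689, 0.771 and 0.771; unadjusted p = 0.494, 0.424, 0.547 and 0.547), and 0.161% of all genes were called in either direction. Without DSE replicate 2 the differences turned to -0.20, -0.14, -0.30 and -0.31. Without DSE replicate 1 they were 0.79, 1.21, 1.04 and 1.14, and again none was called. The direction of the breed difference therefore rested on DSE replicate 2.

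Across all 6 testis libraries ratios between members varied less than their levels did. From the lowest to the highest library PRM1 differed 3.94-fold, PRM2 6.48-fold, TNP1 6.38-fold and TNP2 7.47-fold. DSE replicate 2 was the lowest in each, and without it the ranges were 1.53-fold, 2.02-fold, 1.99-fold and 2.10-fold. The PRM2 to PRM1 ratio, a quantity often followed in sperm because both proteins share the work of packing, was 0.128, 0.0979 and 0.0998 in BMI. It was 0.128, 0.0777 and 0.0837 in DSE, so that 1 library of each breed was high and the other 4 were low. The ratio was 0.109 ± 0.0169 (SD, n = 3) in BMI and 0.0963 ± 0.0273 in DSE, and its highest and lowest libraries differed 1.65-fold, or 1.53-fold without DSE replicate 2. The BMI minus DSE difference in log2 ratio was 0.20 ± 0.26 (SE), with an exact two-sided permutation p of 0.5, where the smallest p that 3 against 3 libraries allow is 0.1. It ranged from 0.06 without DSE replicate 2 to 0.42 without DSE replicate 1.

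The TNP2 to TNP1 ratio was 0.202, 0.232 and 0.255 in BMI and 0.248, 0.212 and 0.215 in DSE. It was the steadiest ratio, with a 1.26-fold range over 6 libraries. The log2 difference between breeds was 0.03 ± 0.12 (exact permutation p = 0.9). In TPM, protamines exceeded transition proteins in every testis library, by 2.58, 3.15 and 3.56 times in BMI and 2.44, 3.89 and 3.31 times in DSE. This log2 ratio differed by -0.04 ± 0.24 between breeds (exact permutation p = 0.9). Each of the 3 ratios had an adjusted p of 0.9 over the 3 tests. With 1 library left out, the difference in the TNP2 to TNP1 ratio went from -0.050 without BMI replicate 3 to 0.12 without BMI replicate 1. That in the protamine to transition protein ratio went from -0.23 without DSE replicate 1 to 0.11 without DSE replicate 2, so both changed sign. The highest TNP1 to PRM1 ratios, 0.364 and 0.370, fell in BMI replicate 1 and DSE replicate 1, which also held the highest PRM2 to PRM1 ratios.

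**Figure D3:**
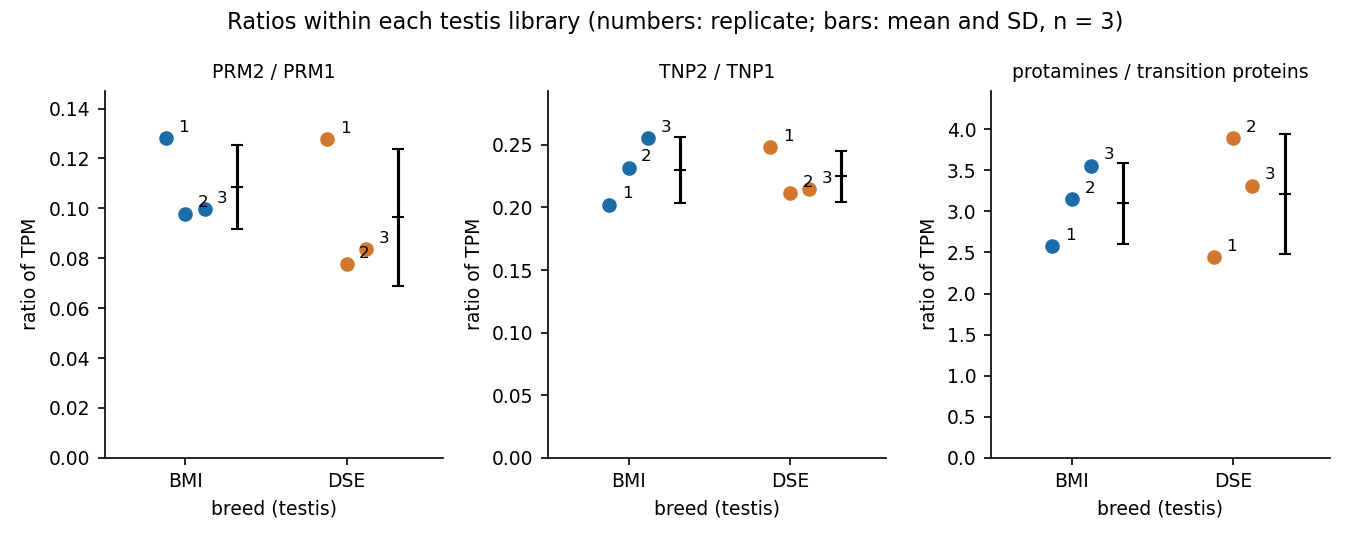
Ratios of TPM within each testis library by breed: PRM2 to PRM1, TNP2 to TNP1, and the sum of PRM1 and PRM2 to the sum of TNP1 and TNP2 (axes start at 0; numbers at points are replicates; black bars are mean and SD, n = 3). Breeds overlap in all 3 panels, and the TNP2 to TNP1 ratio spans 0.202 to 0.255.

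PRM2 was the only member with an added isoform in the merged annotation. Its first exon runs 40 bases further at the 3′ end, and its second exon starts at the same base as the annotated one. The outer ends of both exons also differ from the Ensembl transcript. The added stretch, chr3:31864656-31864695 on the plus strand, lies in the intron of the Ensembl and RefSeq transcripts. It is shown in capitals with 20 bases of exon before it and 20 bases of intron after it, because it changes the reading frame.
PRM2, chr3:31864636-31864715: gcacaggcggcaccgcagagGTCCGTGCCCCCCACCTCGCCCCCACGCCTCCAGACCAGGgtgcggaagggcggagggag
Both the annotated intron and the shortened one begin with GT, the usual first letters of an intron. The 40 bases are not a whole number of codons. From the same start codon the reading frame ran 154 codons in the longer isoform against 93 in the annotated one, and the first 78 codons were shared. In RNA-seq the longer isoform took 17.7%, 10.5% and 8.65% of PRM2 TPM in BMI testis and 8.96%, 10.8% and 13.3% in DSE testis. Its mean share was 12.3% ± 4.78 (SD, n = 3) in BMI and 11.0% ± 2.19 in DSE, which overlapped. In Iso-seq it had 2 of 60 PRM2 reads in BMI testis (3.33%, exact Clopper-Pearson 95% interval 0.406% to 11.5%) and 11 of 190 in DSE testis (5.79%, 2.93% to 10.1%). Salmon divides shared reads between these isoforms by estimation, so the RNA-seq share is an estimate.

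Long reads placed all members in testis and moved their starts. In testis 1319 full-length reads were assigned to members, and outside testis 5. The PRM1 isoform extended the Ensembl transcript by 55 bases at the 5′ end and 28 at the 3′ end, giving 402 bases against 319. That of PRM2 extended it by 29 and 62 bases, to 570 against 479. TNP1 started 15 bases inside the Ensembl transcript and was 399 bases long against 414. TNP2 started 32 bases further 5′ but ended 178 bases short, with 631 against 777 bases. TPM is corrected for transcript length, and the short-read values used the Ensembl transcripts for these isoforms. From PRM1, TNP1 and PRM2 to TNP2, TPM fell as the Ensembl length rose (319, 414, 479 and 777 bases). How far the TPM order of the members depends on these lengths was not tested.

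Full-length reads gave another order of genes than TPM did. They are given as RPM, reads scaled to a common total of the reads on isoforms kept in the table, without a correction for length. In BMI testis PRM1 had 152 of 455023 reads (334 RPM, exact Clopper-Pearson 95% interval 283 to 392), TNP2 100 (220, 179 to 267), PRM2 60 (132, 101 to 170) and TNP1 41 (90.1, 64.7 to 122). In DSE testis TNP2 led with 398 of 457778 reads (869 RPM, 786 to 959), followed by PRM1 with 306 (668, 596 to 748), PRM2 with 190 (415, 358 to 478) and TNP1 with 72 (157, 123 to 198). TNP1, second in TPM, was thus last in both long-read libraries, and TNP2, last in TPM, was second or first. PRM2 made up 28.3% (22.3% to 34.9%) of protamine reads in BMI and 38.3% (34.0% to 42.7%) in DSE. In RNA-seq its share of protamine TPM was 9.78% ± 1.36 (SD, n = 3) in BMI and 8.75% ± 2.24 in DSE. TNP2 made up 70.9% and 84.7% of transition protein reads, against 18.7% ± 1.76 and 18.3% ± 1.33 of their TPM. The intervals cover counting error only, and with 1 Iso-seq library a breed and gland no breed difference could be tested. In the whole Iso-seq table isoforms had a median length of 3316 bases, and isoforms of at most 700 bases took 0.260% of full-length reads. How far read length entered these counts was not tested.

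**Figure D4:**
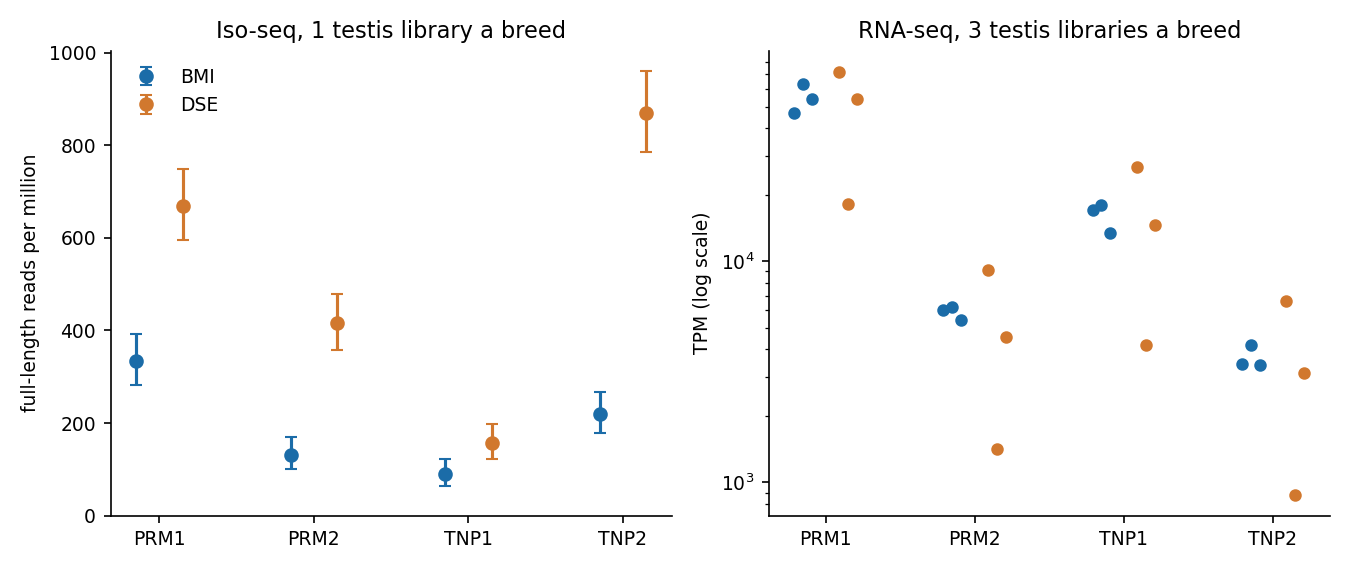
Left, RPM of full-length Iso-seq reads in the BMI and DSE testis library with exact 95% intervals; right, TPM (log scale) of the same 4 genes in 3 RNA-seq testis libraries a breed. TNP1 is lowest on the left, at 90.1 and 157 RPM, and second on the right.

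Traces of all members were found in epididymis, where sperm leave the testis to ripen and are stored. PRM1 was at 77.9, 744 and 16.0 TPM in BMI and 112, 1.06 and 49.6 TPM in DSE. BMI replicate 2 was the highest of the 6 and DSE replicate 2 the lowest. TNP1 was at 19.0, 156 and 2.02 TPM in BMI and at 102, 0 and 7.10 TPM in DSE. PRM2 was at 4.11, 70.5 and 0.780 TPM in BMI and at 30.7, 0 and 2.07 TPM in DSE. TNP2 was at 4.97, 33.9 and 0.262 TPM in BMI and at 4.60, 0.140 and 1.81 TPM in DSE. PRM1 was the highest member in all 6 epididymis libraries, as in testis, while DSE replicate 1 held nearly as much TNP1 as PRM1. In the study's quality control this DSE library had the lowest median transcript integrity of all RNA-seq libraries. As a percentage of the testis mean, PRM1 ranged from 0.00206% in DSE replicate 2 to 1.44% in BMI replicate 2, and TNP2 from 0.00387% to 0.939% in the same libraries.

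Epididymis exceeded the accessory glands in all 4 members. On the log2(TPM + 1) scale the difference between epididymis and the mean of the 3 accessory glands was 4.68 ± 0.65 (SE) for PRM1, 2.51 ± 0.55 for PRM2, 3.40 ± 0.66 for TNP1 and 1.80 ± 0.43 for TNP2. All 4 passed limma's test (adjusted p = 1.96e-06, 5.57e-04, 1.49e-04 and 1.04e-03), and 17.6% of genes were higher in epididymis by the same rule. The fit shares 1 spread per gene over all 30 libraries, which understates the spread in epididymis. PRM1 ran from 1.06 to 744 TPM there and from 0 to 4.78 TPM in the accessory glands, so these SEs and p-values are too small. With size factors all 4 still passed, while 9.04% of genes were higher (1800 higher and 1018 lower, against 3513 and 483), and the median over all genes was 0.03 in place of 0.41. An exact two-sided permutation test of 6 against 18 libraries gave p = 5.94e-05, 2.08e-04, 3.71e-04 and 5.94e-04 in the same order. That test also assumes equal spread in both groups. The groups overlapped in every member, since DSE replicate 2 fell among the accessory glands, whereas 6.64% of genes had all 6 epididymis libraries above all 18 others. PRM1 and PRM2 were above every accessory library in 5 of 6 epididymis libraries, and TNP1 and TNP2 in 4 of 6. Without BMI replicate 2 the 4 members were still called, with TNP2 at 1.19 in place of 1.80.

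Some late spermatid markers were also higher in epididymis, while the lists of storage and histone removal genes stood near the 17.6% of all genes called. The 9 spermatocyte markers summed to 2.76 to 6.76 TPM in epididymis, or 0.837% to 2.05% of their testis mean. SYCP2 (1.16 to 3.51 TPM), MLH3 and SPATA22 carried most of this sum. SYCP3, the most abundant spermatocyte marker in testis, was at most 0.302 TPM in epididymis (0.240% of its testis mean). The 13 late spermatid and sperm markers summed to 24.3 to 181 TPM in epididymis, with the highest sum in BMI replicate 2 (1.73% of the testis mean) and the lowest in DSE replicate 2 (0.232%). In DSE replicate 2 GAPDHS and ODF2 carried most of this sum, while ODF1, SMCP, TSSK2 and LELP1 were listed at 0. GAPDHS stood at 1.35% to 9.34% of its testis mean over the epididymis libraries, where each other marker reached at most 2.07%. Of these markers, 6 of 13 were called higher in epididymis than in accessory glands (median log2 difference 0.89 against 0.41 over all genes). With size factors 5 were called, and 3 without BMI replicate 2. GAPDHS, the glycolytic enzyme of sperm and the most abundant of these markers in epididymis, was higher by 3.37 ± 0.29, LELP1 by 2.32 ± 0.42 and ODF1 by 1.73 ± 0.36. Among genes of mRNA storage and transcription 3 of 16 were called higher, YBX2 by 2.09 ± 0.35, FHL5, a coactivator in spermatids, by 1.35 ± 0.37 and RFX2, a transcription factor of spermatids, by 1.18 ± 0.25. With size factors 1 was called higher, YBX2, and 1 lower. Genes of histone removal gave 3 of 21 (CHD5, PHF7 and PARP1), or 2 with size factors, the spermatocyte markers 1 of 9 (SYCP2), and the germ cell histones 0 of 3 with limma.

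Leydig cell markers were near 0 beside these traces, while the Sertoli cell list held genes that epididymis also expresses. The 6 Leydig cell markers summed to 0.303 to 4.08 TPM in the epididymis libraries, at most 0.0136% of their testis mean, and 0 of 6 were called against the accessory glands with limma (median log2 difference 0.16). INSL3 was at 2.91 TPM in BMI replicate 2, where PRM1 was at 744 TPM, and at 0 in DSE replicate 1, where PRM1 was at 112 TPM. FSHR, the receptor of Sertoli cells for follicle-stimulating hormone, was listed at 0 in all 6 epididymis libraries, and GATA4 reached at most 0.183 TPM. The 8 Sertoli cell markers summed to 33.3 to 69.3 TPM in epididymis and 247 to 702 TPM in testis. Of them CLDN11, a tight junction protein, was higher in epididymis than in accessory glands by 3.91 ± 0.25 and WT1 by 1.75 ± 0.19, while SOX9 was lower, at -2.11. In this comparison 2.43% of genes were lower. The epididymis libraries also differed in the epithelium they held. LCN8 was at 9677 TPM in BMI replicate 2 and between 1.51 and 21.2 TPM in the other 5, and RNASE10 at 10294 against 3.09 to 20.1 TPM. Both are known from the proximal part of the epididymis in other mammals. CRISP1, a secreted protein of epididymal epithelium, was at 21.3 TPM in DSE replicate 1 and at 1100 to 2759 TPM in the other 5. The part of the region sampled in the member traces was not tested.

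**Figure D5:**
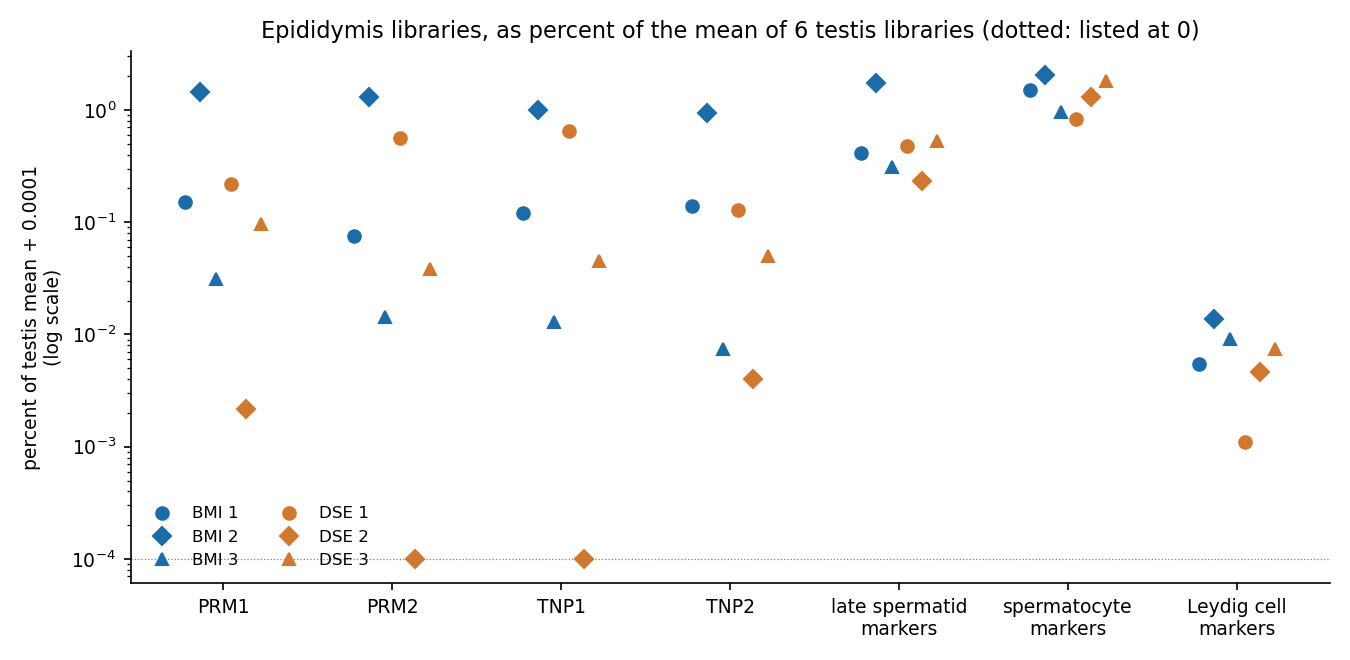
Level in each epididymis library as a percentage of the mean of the 6 testis libraries (log axis, 0.0001 added; blue BMI, orange DSE; shapes mark replicates), for each member and for the summed markers of late spermatids, spermatocytes and Leydig cells. BMI replicate 2 is highest for all 4 members, from 0.939% to 1.44%, and the Leydig cell sums stay at or below 0.0136%.

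The breeds could not be separated in epididymis. BMI minus DSE was 2.13 ± 2.13 (SE) on the log2(TPM + 1) scale for PRM1, 0.91 ± 1.94 for PRM2, 1.17 ± 2.28 for TNP1 and 1.29 ± 1.38 for TNP2. None of the 4 passed limma's test (adjusted p = 1 for each, unadjusted p = 0.362, 0.657, 0.629 and 0.392). Without DSE replicate 2 the differences were 0.40, -0.19, -0.45 and 0.69, and without BMI replicate 2 they were 0.69, -0.61, -0.28 and 0.07, so that PRM2 and TNP1 turned direction. The highest values were 3.41 for PRM1 and 2.46 for TNP2, both without BMI replicate 3, and 2.31 for PRM2 and 2.89 for TNP1, both without DSE replicate 1. No gene of the whole table was called in this comparison (0.0%), although 559 had an unadjusted p under 0.05. The difference between the breed effect in testis and that in epididymis, tested as an interaction, was not called for any member (adjusted p = 0.742 to 0.969).

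In long reads from epididymis, DSE held 1 read of PRM1, 1 of PRM2 and 2 of TNP1 among 231413 reads on kept isoforms, and BMI held 1 read of TNP2 among 458697. The 4 reads in DSE correspond to 17.3 RPM (exact Clopper-Pearson 95% interval 4.71 to 44.3) and the 1 read in BMI to 2.18 (0.0552 to 12.1). Every epididymis count of a single member was below 3 reads. No member read was found in the 6 accessory gland Iso-seq libraries, where the floor of 3 reads stands at 7.72 to 11.4 RPM and the exact upper limits at 9.49 to 14.0 RPM.

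In the accessory glands, which add fluid to semen, members were at or near 0. In the vesicular gland 2 of 6 libraries held any member above 0, with at most 0.797 TPM (TNP1 in BMI replicate 3). In the prostate gland 5 of 6 libraries held a member above 0, and PRM1 reached 4.78 TPM in 1 DSE library. In the bulbourethral gland all 6 libraries held a trace of PRM1, from 0.755 to 4.29 TPM. PRM2 was listed at 0 in 12 of 18 accessory gland libraries, TNP1 in 9, TNP2 in 8 and PRM1 in 7. The mean of PRM1 was 0.103 ± 0.252 TPM (SD, n = 6) in the vesicular gland, 1.75 ± 2.08 in the prostate gland and 1.94 ± 1.28 in the bulbourethral gland. Prostate and bulbourethral gland did not differ beyond their spread. The prostate gland overlapped the vesicular gland, where PRM1 was at most 0.618 TPM, and the bulbourethral gland did not. The order of glands for PRM1 was thus testis, epididymis, then the accessory glands, with DSE epididymis replicate 2 (1.06 TPM) inside the range of the last. The 13 late spermatid markers summed to 5.07 to 15.9 TPM in these glands, and the 6 Leydig cell markers to at most 1.71 TPM. ODF2 carried most of the late spermatid sum, with medians of 5.71, 7.28 and 9.91 TPM in vesicular, prostate and bulbourethral gland. ODF1, SMCP, TSSK2 and LELP1 reached at most 0.354 TPM there.

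Over the 30 libraries the gene most like PRM1 in its pattern, apart from members, was HSPB9, a small heat shock protein of testis (Pearson r = 0.988 on the log2(TPM + 1) scale). LELP1 (0.986), C11orf71 (0.978), ATP8B3 (0.978) and ODF1 (0.978) came next. The genes most like TNP1 were HSPB9 (0.996), LELP1 (0.994), TPPP2 (0.988), PROCA1 (0.987) and ODF1 (0.986). Between members r with PRM1 was 0.984 for PRM2, 0.990 for TNP1 and 0.977 for TNP2. These correlations mostly describe testis against everything else, and 1470 of 13876 named genes had an r above 0.9 with PRM1. Over the 24 libraries outside testis, where the testis contrast is absent, 10 genes had an r above 0.9 with the summed members. The 5 highest were HSPB9 (0.938), LELP1 (0.925), C12orf54 (0.923), TSSK2, a kinase of spermatids (0.912), and DNAAF1, an assembly factor of cilia and flagella (0.911). HSPB9 was at 1204 to 4394 TPM in testis, 0 to 49.5 TPM in epididymis and at most 0.697 TPM in the accessory glands. The libraries share glands and breeds, so these correlations are descriptions without a test.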

How the data were processed

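Sources for how the files were made are the labels and the methods of the study. Per the labels, RNA was total RNA of whole glands. The methods name poly-T beads for RNA-seq, whereas the labels name rRNA depletion. The authors aligned clustered Iso-seq reads to Sscrofa11.1, collapsed them, classified isoforms with the tool SQANTI3 against the Ensembl annotation and merged them with Ensembl. They deposited counts of full-length reads per isoform kept after these steps, whose sums served as the totals for RPM and intervals. The deposited TPM values, which share 1 fixed sum in every library, were made by the authors with Salmon 1.9.0 on the merged annotation, whose coordinates and isoform lengths were also deposited.

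TPM was summed by gene name (Python 3.11.15, pandas). Genes with at least 1 TPM in at least 3 of 30 libraries (19911) were tested with limma 3.58.1 in R 4.3.3 on log2(TPM + 1), with Benjamini-Hochberg adjustment over all genes. Gland contrasts came from 1 fit of all 30 libraries by breed and gland, which shares 1 spread per gene. It understates the spread of members in epididymis, so SEs of contrasts with that gland are too small. Breed contrasts came from the 6 libraries of a gland. A call needed an adjusted p under 0.05 and an absolute log2 difference of at least 1. Ratios in testis were compared with exact two-sided permutation tests. Intervals are exact Clopper-Pearson at 95%, and a floor is 3 reads. The fits were tested on simulated data. The members and gene lists were chosen with earlier results of these data known. Named genes were all members, up to 3 called genes with the largest differences per list, direction and comparison (all where at most 5 were called), the most abundant gene of each marker list in testis and in epididymis, and the 5 genes most correlated with PRM1, TNP1 or the summed members. Genes named for single libraries (FSHR, GATA4, LCN8, RNASE10) and SOCS1 were chosen after their values were seen. Alternatives were another pseudocount, size factors, no filter, Ensembl transcripts alone, limma with a trend, a replicate block and leaving out each library. Permutation tests of member levels, list counts under other settings, and testis ranges without DSE replicate 2 were added after seeing the data. Reference sequence came from RefSeq's Sscrofa11.1, the build of the deposited coordinates. A protein table was not used here. Same-numbered libraries were treated as unpaired. Small RNA values were not used here. Values of 1 gene of the accessory gland marker list are not reported here.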

Additional observations from a re-analysis of the deposited data

Results flagged for a closer look

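In groups of 6 libraries, a library was singled out where its gap to the nearest other took a larger share of the whole range than Dixon's 95% critical value for 6 samples. Of 27 such tests 9 passed. Chance gives about 1 in 20 for normally spread values, a rate that does not hold for groups listed mostly at 0. In epididymis BMI replicate 2 stood out for PRM1 (744 TPM) and TNP2 (33.9 TPM), in the library that also held the highest late spermatid markers. In testis DSE replicate 2 stood out for the summed late spermatid markers (3379 TPM, low) and the summed Leydig cell markers (63648 TPM, high), while no member passed the same test there. In the vesicular gland, where a single library above 0 stands out by construction, DSE replicate 2 stood out for PRM1 (0.618 TPM), PRM2 (0.207 TPM) and TNP2 (0.188 TPM), and BMI replicate 3, 1 of 2 libraries above 0, for TNP1 (0.797 TPM). In the bulbourethral gland BMI replicate 3 stood out for PRM1 (4.29 TPM).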

How the results depend on the processing

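All 4 members were called in testis against the other glands, in testis against epididymis and in epididymis against the accessory glands under every alternative run. Their log2 differences were 10.59 to 13.77, 8.98 to 10.79 and 1.19 to 5.55 with a library left out, and 10.77 to 14.79, 9.57 to 10.61 and 1.57 to 6.23 under the other settings. In neither breed comparison was any member called. With 1 library left out, the breed difference in testis ranged from -0.20 to 0.79 for PRM1, -0.14 to 1.21 for PRM2, -0.30 to 1.04 for TNP1 and -0.31 to 1.14 for TNP2. In epididymis it ranged from -0.61 to 2.31 for PRM2 and -0.45 to 2.89 for TNP1, with the negative values without BMI replicate 2 or DSE replicate 2. The log2 TNP2 to TNP1 ratio ranged from -0.050 to 0.12 and the protamine to transition protein ratio from -0.23 to 0.11, and so changed sign, while the PRM2 to PRM1 ratio stayed between 0.06 and 0.42. The cause was not tested.

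Counts over all genes moved more. Epididymis against the accessory glands gave 3513 higher and 483 lower genes, 5567 and 756 with a pseudocount of 0.1, and 2171 higher with Ensembl transcripts alone, which tests fewer genes. Testis against the other glands gave 6877 higher and 2535 lower, 3757 higher with Ensembl transcripts alone and 3824 lower with a pseudocount of 0.1. Testis against epididymis gave 5841 higher, and 3061 with Ensembl transcripts alone. BMI against DSE in testis gave 24 higher and 8 lower, 45 and 25 with a pseudocount of 0.1, 11 and 3 with no filter, 4 and 1 with Ensembl transcripts alone, 734 and 211 in 1 fit of all glands, and 0 to 43 and 0 to 58 with a library left out. In epididymis no gene was called, against 58 and 82 in 1 fit of all glands and 1 and 6 with a pseudocount of 0.1. The replicate block left all member calls as they were and gave 0 and 0 genes between breeds in testis. Same-numbered libraries correlated between breeds in testis at -0.21 to 0.12, where no boar can be shared. Between glands of a breed the median correlation was 0.047 for the same number and -0.022 for different numbers. Same-numbered libraries were treated as unpaired. The block cannot move a mean difference between breeds here, such as 0.20 for the log2 PRM2 to PRM1 ratio, because each number is in both breeds. Depth limits what the RNA-seq traces show, because TPM keeps no read counts, and a level under 1 TPM may rest on few reads.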
